A study of Rattus norvegicus with 4 samples.

Results

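Very broad and dense domains of H3K4me3, trimethylation of histone H3 at lysine 4, were examined in rat sciatic nerve after axons were cut. A domain was a genomic region that held peaks in both the sham and the transected peak list, in which at least 1 peak by itself was 4000 bp or longer in at least 1 list, and which carried at least 150 normalized tags per kb of called length in both lists. A normalized tag is a sequenced tag scaled by the authors to a total of 10000000 tags. Of 27962 regions present in both lists, 468 (1.67%, 95% exact binomial interval 1.53 to 1.83) met this rule, out of 39013 merged regions in all. Length and tag density chose the members, so their values below are a description. A further 130 shared regions had a peak of 4 kb or more and fell below the density limit.

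H3K4me3 was measured by chromatin immunoprecipitation and sequencing of chromatin cut with micrococcal nuclease, in adult male Sprague Dawley rats. The transected group was the nerve distal to a sciatic transection at 1 day after injury. The sham group was the contralateral nerve, whose limb had a skin incision alone and which was taken at the same time from animals that carried a cut nerve on the other side. Each group had 2 samples, which the authors pooled into 1 peak list, so no value has a replicate spread and no difference between the lists has a test. The labels do not say how many animals gave a sample. Whole nerve holds Schwann cells, fibroblasts, endothelial and immune cells, and a change in the number of cells that carry the mark and a change in the mark per cell cannot be told apart. The sources used here name no genome build for the positions, so domains are given by position as listed, without gene names or sequence, and the tissue was not checked against marker genes.

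H3K4me3 is placed by the SET1 and MLL families of methyltransferases, which are drawn to unmethylated CpG islands and to initiating RNA polymerase II. At most active promoters it covers the few nucleosomes that flank the start site. At some genes it spreads far into the transcribed body, and such broad domains are known to be enriched at genes that define the identity of a cell type. After transection, Schwann cells lose contact with axons and switch from a myelinating to a repair state, which makes the breadth of the mark at 1 day a question about an early stage of that switch.

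The domains covered a small part of the marked genome and held a slightly larger part of its tags, which the density limit of the rule favours. Their called length summed to 2.34 Mb in sham and 2.32 Mb in transected nerve, 6.82% and 7.31% of all called length, while 8.04% and 8.12% of peak tags fell in them. Called length is the sum of the peaks of a list in a region, gaps excluded. It ranged from 2491 to 16767 bp with a median of 4619 bp in sham, and from 2908 to 15062 bp with a median of 4579 bp in transected nerve. Most domains were near the lower limit: 189 had a peak of 5000 bp or more, 88 of 6000 bp or more, 37 of 7000 bp or more, 16 of 8000 bp or more and 5 of 10000 bp or more. The domains held from 409 to 5668 normalized tags in sham (median 1439) and from 561 to 5661 in transected nerve (median 1417), which rested on medians of 3253 and 3020 sequenced tags before scaling.

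Tag density in sham ranged from 152 to 695 tags per kb over the domains, with a median of 290. After transection the median was 285 and the range 151 to 743. Dense shared regions whose longest peak was 2 to 4 kb, chosen by the same density rule, had medians of 351 and 359. Over all dense shared regions the median in sham was 243 below 500 bp, 294 at 500 to 1000 bp, highest at 1 to 2 kb with 411, then 367 at 2 to 3 kb and 315 at 3 to 4 kb. Only 2.78% of shared regions below 500 bp and 15.9% at 500 to 1000 bp passed the density limit. In the next 3 classes 67.35%, 78.8% and 76.8% did, so the medians below 1 kb describe a small part of those regions. Inside the set the medians in sham were 292 for domains of 4 to 5 kb, 296 for 5 to 6 kb and 292 for 6 to 8 kb, and 208 for the 16 domains of 8 kb or more. Within the domains mean length and mean density were nearly unrelated (Spearman rho -0.07, Pearson r -0.12, n = 468 regions that share 2 libraries). Of the 100 shared regions with most tags, 81 were domains. Tags are the product of length and density, which chose the members, so nothing is read from this count.

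The longest domain lay on chromosome 1 at 132480123 to 132496890. In sham it was 1 peak of 16767 bp with 3323.2 tags, and in transected nerve it was called in 4 pieces that summed to 15062 bp with 3072.2 tags. Its density was 198 tags per kb in sham against 204 after transection. On chromosome 12 (15830817 to 15841877) lay the domain with most tags, 5667.5 in sham over 2 pieces and 5660.5 in transected nerve over 1 peak. Its called lengths were 10815 and 11022 bp, its outer edges differed by 37 and 1 bp between the lists, and its densities of 524 and 514 tags per kb were the highest of the 10 longest domains.

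Others of the 10 longest were also broken in a single list. On chromosome 1 (228129700 to 228142538), the sham list held 3 pieces of 11480 bp in all with 3500.65 tags, and the transected list held 1 peak of 12818 bp with 3544.4 tags. On chromosome 10 (103925610 to 103936428), the sham list held 1 peak of 10698 bp at 190 tags per kb, and the transected list 3 pieces of 9666 bp at 176 tags per kb. On chromosome 11 (80468624 to 80479301), sham held 2 pieces of 9365 bp and transected nerve 1 peak of 10677 bp, with 188 and 177 tags per kb. The chromosome 2 domain (5557343 to 5568722) was in 2 pieces in both lists, which summed to 10853 bp in sham against 9768 bp after transection.

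The last 4 of the 10 longest were whole in both nerves. That on chromosome 16 (83285557 to 83294659) had outer edges that differed by 1 and 27 bp, called lengths of 9102 and 9074 bp, and 194 tags per kb in sham against 244 in transected nerve. Another on chromosome 12 at 40768713 to 40777219 had edges that differed by 8 and 14 bp, lengths of 8492 and 8498 bp, and 227 and 247 tags per kb. On chromosome 9 (87829132 to 87837869) the lengths were 8737 and 8409 bp and the densities 259 and 221. On chromosome 7 (117237065 to 117245553) the lengths were 8001 and 8488 bp and the densities 217 and 221.

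**Figure D1:**
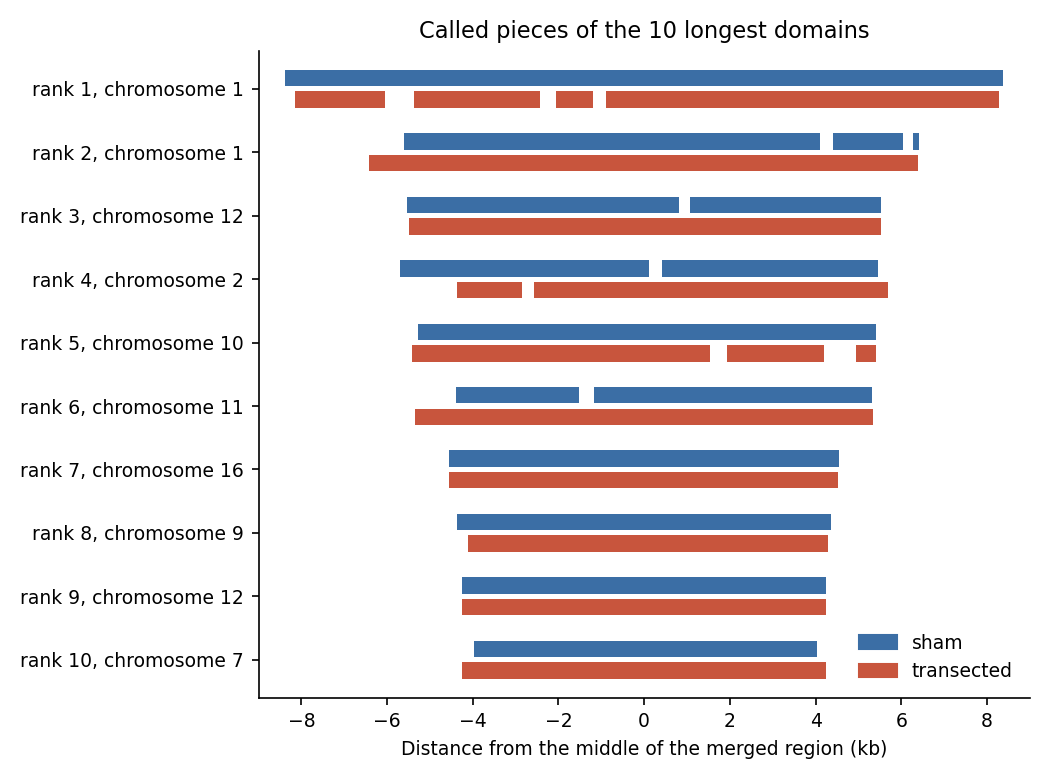
Called pieces of the 10 domains with the greatest mean called length, in sham (blue, upper bar) and transected nerve (red, lower bar), by distance in kb from the middle of each merged region. The longest domain has 1 piece in sham against 4 after transection, while domains ranked 7 to 10 are whole in both lists.

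The lists differed in called length by little at most domains, and in both directions. Sham was the longer list at 270 domains (57.7%, 95% exact interval 53.1 to 62.2) and transected nerve at 198. The same share was 56.2% among the 3510 dense regions of 2 to 4 kb and 57.8% among 5970 background regions, all shared regions with at least the mean tags of the weakest domain. The background regions include the domains and held fewer tags, with medians of 898 in sham and 915 in transected nerve. The median difference was -56.5 bp, transected minus sham, with 5th and 95th percentiles of -889 and 1027 bp. A difference of 25% or more was seen in 19 domains longer in transected nerve (4.06%) and 16 longer in sham (3.42%). Among the background regions these percentages were 2.19 and 2.75, and among the 2 to 4 kb regions 2.85 and 4.02. Since the length limit had to be met in only 1 list, nothing is read from the comparison. The limit was met in both lists by 302 domains, in sham alone by 101 and in transected nerve alone by 65.

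Most domains with the larger length differences were in pieces in the shorter list. Of the 19 domains at least 25% longer in transected nerve, 14 were in pieces in sham, and of the 16 longer in sham, 12 were in pieces in transected nerve. Among the 2 to 4 kb regions this was so for 25 of 100 and 40 of 141. A peak of 4 kb in 1 list is part of the rule and favours pieces in the other list alone. Nothing is therefore read from the gap between the sets. Measured as the outer span of each list, with the gaps counted in, 9 of the 19 domains and 5 of the 16 still differed by at least 25%. In the 2 to 4 kb regions 79 of the 100 and 105 of the 141 did. The outer span had a log2 ratio with an SD of 0.13 over the 468 domains, against 0.18 for called length. For the 2 to 4 kb regions the SDs were 0.15 and 0.17.

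Domains were called in pieces in 1 list far more often than in both. In sham, 78 domains (16.7%) were in 2 to 4 pieces, and in transected nerve 95 (20.3%). Among the background regions the percentages were 4.72 and 4.82, and among the 2 to 4 kb regions 6.67 and 6.47. The dense regions next to the domains in length, those of 3 to 4 kb, were in pieces in 12.7% in sham and 12.6% in transected nerve, against 12.5% and 18.6% of domains of 4 to 5 kb. Pieces in both lists were seen in 7 domains. A peak of 4 kb in 1 list is part of the rule and holds the pieces of the other list together, so pieces in 1 list alone are favoured by the choice of regions. There were 100 gaps between pieces in sham, with a median of 310 bp and a range from 220 to 1181 bp, and 119 in transected nerve, with a median of 324 bp and a range from 222 to 941 bp. The share was higher in longer domains and reached 37.5% of the 16 domains of 8 kb or more in each list.

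The 5 greatest losses of called length after transection were all domains whole in sham and in pieces in transected nerve. A chromosome 10 domain at 88664596 to 88672517 went from 1 peak of 7921 bp to 4 pieces of 5929 bp, while its tags were 2180.1 and 2023.3. On chromosome 1 at 271501267 to 271508411, 1 peak of 7144 bp with 1673.3 tags stood against 2 pieces of 5177 bp with 1171.92 tags, and the shift of the right edge was -910 bp, negative where the transected list ends further in. The longest domain of all was the third of the 5. The others lay on chromosome 11 (3096547 to 3101279), with 4732 bp and 3 pieces of 3039 bp, and on chromosome 10 (94207697 to 94212989), with 5197 bp and 2 pieces of 3566 bp.

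Of the 5 greatest gains, 3 were 1 peak in both lists and 2 were in pieces in sham. Another chromosome 10 domain at 55749379 to 55756122 went from 4108 bp in sham to 6743 bp after transection, its left edge lay 2397 bp further out, and it held 1960.6 and 2384.6 tags. On chromosome 7 at 3302161 to 3307154 the called length went from 2714 to 4993 bp, the right edge lay 2225 bp further out, and the tags were 557.2 and 856.5. On chromosome 11 at 84413800 to 84418894 it went from 3003 to 5094 bp, the left edge lay 2081 bp further out, and the tags were 1598.1 and 1822.9. In these 3 domains the tag difference divided by the length difference was 161, 131 and 108 normalized tags per kb, against sham densities of 477, 205 and 532. Those quotients would be the density of the added stretch only if the shared stretch held equal tags in both lists, which the lists do not give. The domains in pieces in sham lay on chromosome 10 (106607456 to 106615519), with 5979 and 8063 bp, and on chromosome 8 (66036805 to 66044027), with 5174 and 7182 bp.

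Most outer edges of the domains held their place, though a smaller share than in the background or the 2 to 4 kb regions. Of 936 edges, 626 (66.9%, 95% exact interval 63.8 to 69.9) differed by less than 150 bp, the width of 1 calling window, and the median absolute shift was 79 bp. Both edges held in 204 domains (43.6%), against 55.4% of the 2 to 4 kb regions and 64.7% of the background regions. In transected nerve 46 edges (4.91%) reached at least 370 bp further out than in sham, and 48 (5.13%) lay at least 370 bp further in, 370 bp being the stitching distance of the caller. Among the 11940 edges of the background regions, 1.89% and 1.65% did so, and 80.4% held. In the 2 to 4 kb regions these were 2.71% and 2.61%, 74.99% of edges held, and the median absolute shift was 66 bp. The length limit had to be met in only 1 list, which favours domains with an edge further out in that list. With the limit met in both lists, 70.5% of domain edges held. Then 3.64% lay at least 370 bp further out in transected nerve and 4.14% further in. The part of the rule in the gaps to the comparison regions was not tested. By length class, edges held in 72.7% at 3 to 4 kb, 70.8% at 4 to 5 kb, 67.3% at 5 to 6 kb and 52.8% at 6 to 8 kb, where the median absolute shift was 143 bp, and in 59.4% at 8 kb or more. As a part of the length, the median shift was 2.84% at 2 to 3 kb, 2.14% at 3 to 4 kb, 1.57% at 4 to 5 kb, 1.595% at 5 to 6 kb, 2.07% at 6 to 8 kb and 1.00% at 8 kb or more.

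Where a domain had an edge that moved by 370 bp or more, it was nearly always a single edge. Such a shift was seen in 90 domains (19.2%, against 6.92% of the background regions and 10.5% of the 2 to 4 kb regions), at the left edge alone in 44, at the right edge alone in 42 and at both in 4. Both edges moved in 5 of the 368 regions of 2 to 4 kb with such a shift, and in 10 of the 413 background regions. A single moved edge was thus not particular to the domains. Shifts of the left and right edge were nearly unrelated over the 468 domains (Spearman rho 0.11, Pearson r 0.06). The 4 domains with both edges moved were chosen here after their values were seen. On chromosome 20 at 9787422 to 9793336 both edges lay further in after transection, with shifts of -729 and -511 bp, and likewise on chromosome 3 at 2598577 to 2603091, with -395 and -452 bp. On chromosome 20 at 24551712 to 24559576 both lay further out, by 824 and 728 bp, and on chromosome 3 at 170244017 to 170248500 the left edge lay 500 bp further out while the right edge had a shift of -377 bp.

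Beyond the 3 edges already given, the greatest outward shifts in transected nerve were 1706 bp at the right edge on chromosome 1 (281657212 to 281661460) and 1571 bp at the right edge on chromosome 18 (27367667 to 27373525). The greatest shifts in the other direction were smaller. They were -1333 bp at the left edge of the chromosome 2 domain at 5557343, -1146 bp at the left edge on chromosome 10 at 94207697, and -1014 bp at the right edge on chromosome 10 at 88283648. Left edges on chromosome 17 (1075438 to 1081163) and chromosome 1 (81264851 to 81269752) had shifts of -995 and -979 bp. The median signed shift was -19 bp at left edges and -16 bp at right edges of domains, and -14 and -17 bp in the 2 to 4 kb regions. The fragment length in the file headers was 144 bp for the sham list and 132 bp for the transected list, and the threshold of 8 tags stood for 3.54 and 3.75 normalized tags. The part of these in the signed shifts was not tested.

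**Figure D2:**
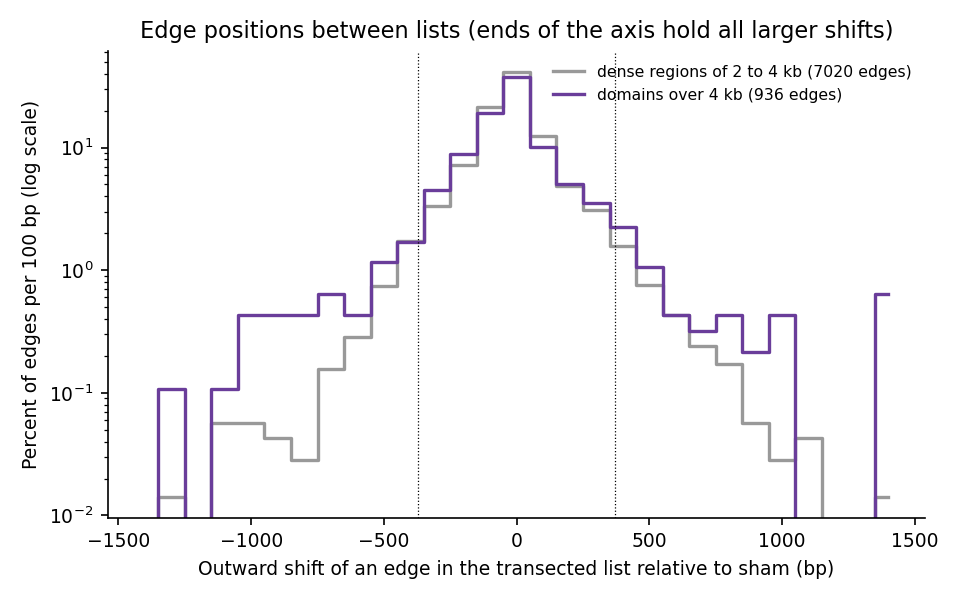
Outward shift of outer edges in the transected list relative to sham, in bp, as a percentage of edges per 100 bp on a log scale, for 936 domain edges (purple) and 7020 edges of dense regions of 2 to 4 kb (grey). Dotted lines mark 370 bp, the end bins also hold all larger shifts, and 4.91% and 5.13% of domain edges lie beyond them to the right and left, against 2.71% and 2.61% in grey.

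Tag sums of the domains were close between the nerves. Ratios are log2 of transected over sham, less the median of -0.07 found over all 27962 shared regions, and density ratios were centred in the same way. The centred tag ratio had a median of 0.07 and an SD of 0.23 over the domains, and a median of 0.09 and an SD of 0.19 over the 2 to 4 kb regions. Over the background regions its median was 0.10 and its SD 0.17. Centred tags were higher in transected nerve at 301 domains (64.3%), but without centring at 233 (49.8%), so the balance of directions rests on the centring. The same shares were larger in both comparison sets. They were 70.8% and 54.3% among the 2 to 4 kb regions, and 75.1% and 58.6% among the background regions. Between the lists, tag sums had a Spearman rho of 0.92 and densities a rho of 0.92 over the 468 domains, and called lengths a rho of 0.80.

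A centred difference of 1.5-fold or more was seen in 9 domains with more tags after transection (1.92%) and in 1 with fewer (0.214%). Among the background regions 0.536% and 0.168% passed the same limits, and among the 2 to 4 kb regions 0.798% and 0.313%. These counts moved with the centring: 6 domains were higher and 3 lower with no centring, and likewise 6 and 3 when centred on dense regions of 1 kb or more. With the length limit met in both lists, 4 of 302 domains were higher (1.32%) and 1 was lower (0.331%). All 9 were called longer in transected nerve, 4 of them by 25% or more, and 8 of the 9 also had a higher centred density. The length limit could be met in the transected list alone, which favours longer calls with more tags there. Nothing is therefore read from the 9 against 1 or from the lengths of the 9. Density differed by 1.5-fold or more in 1 domain upward and in 1 downward after transection (0.214% each), against 0.419% and 0.184% of the background regions and 0.484% and 0.114% of the 2 to 4 kb regions. The counting error of a domain's log2 ratio had a median SD of 0.037, and the spread over domains was 6.01 times the counting SD. The spread was 3.85 times the counting SD in the 2 to 4 kb regions and 3.71 times in the background regions. In both of those sets the median counting SD was larger, 0.046, which by itself makes these multiples smaller. Counting intervals below describe these pooled libraries, not the conditions.

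The highest ratio belonged to the domain on chromosome 1 at 281657212 to 281661460, with 409.4 tags over 2491 bp in sham and 918.0 tags over 4248 bp in transected nerve. The centred fold was 2.35 (log2 1.24, 95% exact counting interval 1.12 to 1.35), and density was 164 tags per kb in sham against 216 after transection. The chromosome 10 domain at 106607456 to 106615519 had 1441.9 tags in sham, in 4 pieces, and 2898.1 in transected nerve, in 1 peak. Its centred fold was 2.11 (log2 1.08, interval 1.02 to 1.14), and its density was 241 tags per kb in sham against 359 after transection. Its outer edges differed by 5 and 243 bp.

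Of the other 7, some had higher tags with little change of length. On chromosome 12 at 19726417 to 19731834 the lengths were 5282 and 5417 bp and the tags 851.5 and 1350.7, a centred log2 ratio of 0.74, and this was the domain with the density 1.5-fold higher (161 against 249 tags per kb). On chromosome 7 at 11811666 to 11817057 the lengths were 5342 and 5391 bp and the tags 1040.5 and 1512.6. Also on chromosome 7, at 12588961 to 12595143, lengths of 5735 and 6182 bp went with 1895.9 and 2878.8 tags. On chromosome 8 (127870581 to 127874905) tags were 750.1 and 1236.2, and on chromosome 6 (116249502 to 116254680) 1438.3 and 2115.3. That on chromosome 7 at 3302161 was the 1 of the 9 whose density was lower after transection, 205 against 172 tags per kb, and on chromosome 18 at 27367667 the densities were 289 and 294.

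The lowest ratio lay on chromosome 10 at 88283648 to 88290285, the domain with fewer tags past 1.5-fold. It held 1505.6 tags over 6612 bp in sham and 943.3 tags over 5623 bp in transected nerve, a centred log2 ratio of -0.60 (95% exact counting interval -0.68 to -0.52). The next were the chromosome 3 domain at 2598577, with 881.6 and 561.3 tags (log2 -0.58), and the chromosome 20 domain at 9787422, with 1373.7 and 875.3 tags (log2 -0.58). Then came chromosome 1 at 102765683 to 102770688, with 1755.6 and 1179.4 tags, and chromosome 3 at 149628723 to 149633103, with 1495.4 and 1025.9. All 5 were 1 peak in both lists, were called shorter in transected nerve and were less dense there.

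Over the domains, tags were higher where the call was longer, and density was weakly lower. The log2 ratios of tags and of called length had a Spearman rho of 0.54 (Pearson r 0.58), and those of density and length a rho of -0.18 (r -0.24), over 468 domains that share the libraries and the called edges. The signs were not particular to the domains. These rhos were 0.37 and -0.45 in the 2 to 4 kb regions, and 0.27 and -0.50 in the background regions. In the 19 domains at least 25% longer in transected nerve, centred tags were higher there in 19, with a median log2 ratio of 0.37, and centred density was higher in 4, with a median of -0.20. In the 16 at least 25% longer in sham, centred tags were higher in transected nerve in 5, with a median of -0.14, and centred density was higher in 14, with a median of 0.25. Of the 100 regions of 2 to 4 kb that much longer in transected nerve, tags were higher there in 94 and density in 10. Of the 141 that much longer in sham, tags were higher in transected nerve in 52 and density in 125. The domain whose density was 1.5-fold lower was that extended by 2081 bp on chromosome 11, with 532 tags per kb in sham against 358 after transection. Density is taken over the called length of each list, so the stretches compared are not the same.

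**Figure D3:**
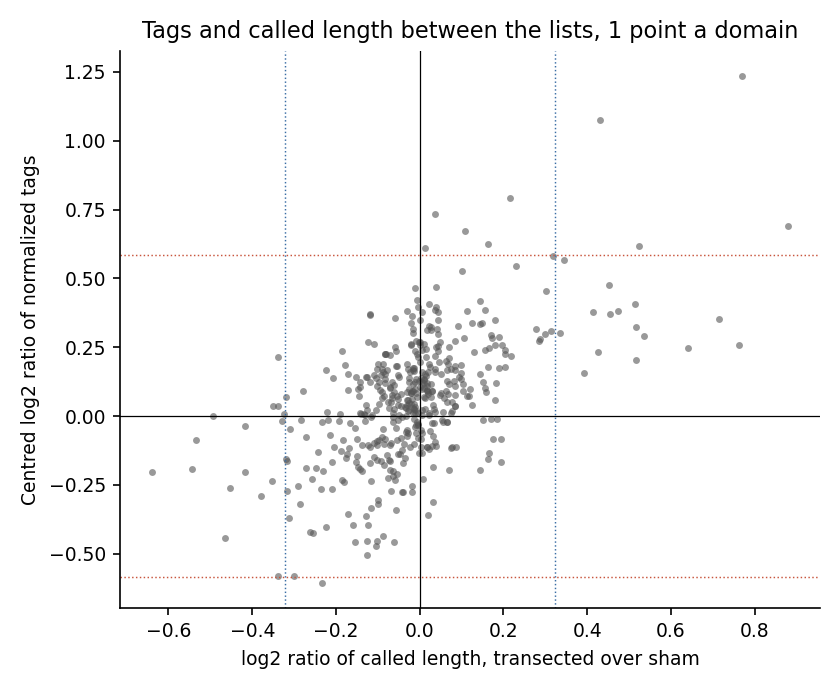
Centred log2 ratio of normalized tags (y axis) against log2 ratio of called length (x axis), transected over sham, 1 point for each of 468 domains. Dotted lines mark 1.5-fold in tags and 25% in length, and the 9 domains above the upper line all lie to the right of 0.

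The densest domains were near the lower length limit. On chromosome 1 at 154719643 to 154723995 density was 695 tags per kb in sham and 743 after transection, over 3843 and 4352 bp. On chromosome 7 at 100533145 to 100537891 it was 609 and 673, and on chromosome 1 at 251866139 to 251870572 it was 660 and 596. The least dense lay on chromosome 3 at 17021323 to 17025967 (153 and 152 tags per kb), chromosome 5 at 175498258 to 175504340 (156 and 153) and chromosome 16 at 20430123 to 20435674 (152 and 157). Just inside the length limit the longest peaks were 4001, 4004 and 4005 bp, and just outside it 3998, 3998 and 3994 bp. Just inside the density limit the lower of the 2 densities was 151.3, 151.6 and 152.5 tags per kb, and just outside it 149.5, 149.1 and 148.5.

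Position was not used to choose the domains. They were found on all 21 chromosomes of the lists, from 0.747% of the shared regions on X (5 of 669, 95% exact interval 0.243 to 1.74) to 2.46% on chromosome 10 (52 of 2111, interval 1.84 to 3.22). The density limit was the same on X, although the rats were male. The part of a single X copy in the share on X was not tested. Most stood alone, with a median distance of 1551 kb to the next domain. Another domain lay within 100 kb of 38 domains, in 17 groups, of which 15 were pairs.

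The largest group held 5 domains within 193 kb on chromosome 1, from 227949882 to 228142538. From its first to its last domain, the called lengths in sham were 3997, 6622, 5787, 7627 and 11480 bp, and those in transected nerve 4258, 6652, 5799, 7550 and 12818 bp. Density was 208, 380, 366, 309 and 305 tags per kb in sham, and 234, 392, 383, 277 and 277 after transection. The group as a whole held 11322 tags in sham and 11460 in transected nerve. In the third domain, at 228014952 to 228020751, both edges agreed within 11 bp. The second group, on chromosome 20 from 6433969 to 6473884, held 3 domains within 39.9 kb, with 3602.4 tags over 14054 bp in sham and 3312.1 tags over 13009 bp in transected nerve. Its last domain, at 6468832 to 6473884, was 1 peak with 1301.1 tags in sham and 3 pieces with 992.2 tags in transected nerve.

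**Figure D4:**
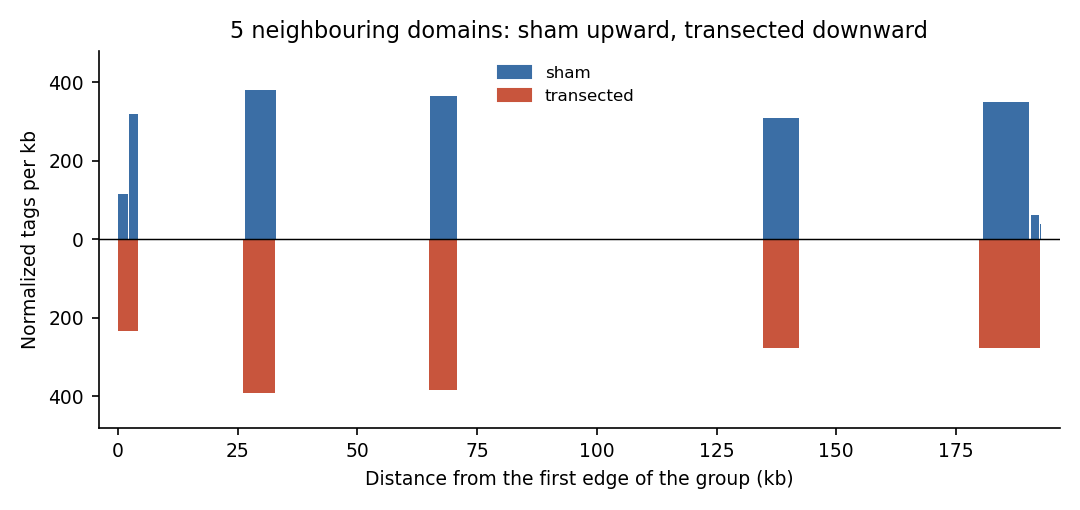
Normalized tags per kb of each called piece in the group of 5 neighbouring domains on chromosome 1, sham upward and transected downward, by distance in kb from the first edge of the group. The 3 inner domains are 1 peak in both lists, with heights of 380, 366 and 309 in sham against 392, 383 and 277, and the domains at either end are in pieces of unequal height in sham.

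Other, mostly weak regions lay close to the domains. The nearest other region was within 1 kb of 217 domains (46.4%, 95% exact interval 41.8 to 51.0), while this was so for 25.2% of the 2 to 4 kb regions and 20.2% of the background regions. The median gap was 1.31 kb for domains and 7.43 kb for 2 to 4 kb regions. The 217 neighbours were narrow, with a median of 293 bp, and held 7.97 tags at the median. Of them, 108 were present in both lists, 57 in sham alone and 52 in transected nerve alone. Of all 39013 merged regions, 27962 were in both lists, but those 27962 held a median of 79.2 tags. No share was taken for regions as weak as these neighbours, so nothing is read from the split. Domains had a mean of 1.92 other regions within 10 kb, against 1.06 for the 2 to 4 kb regions. Regions are not replicates, so these shares are given without a test of their difference.

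The clonal fold, the ratio by which the caller finds fewer tag positions than expected, exceeded 1 in the longest peak of 20.3% of domains in sham and 19.0% in transected nerve. In the 2 to 4 kb regions it exceeded 1 in 39.1% and 37.9%, and its median was 0.77 and 0.76 in domains against 0.91 and 0.90 there. By length class the medians were 0.95 and 0.94 at 2 to 3 kb, 0.81 and 0.80 at 3 to 4 kb, and 0.78 and 0.76 in domains of 4 to 5 kb, so the lower clonal fold was not particular to the domains. The findPeaks score of the longest peak had a median of 11 in both lists for domains and for 2 to 4 kb regions alike. It stood at the tag threshold of 8 in 21.6% of domains in sham and 19.4% in transected nerve. This was near the 20.1% and 18.9% of the 2 to 4 kb regions and the 17.9% and 17.8% of the background regions. The caller removes peaks above a clonal fold of 2, and the part of that filter in the shares of clonal fold was not tested.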

How the data were processed

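Chromatin immunoprecipitation for H3K4me3 was measured in 4 samples, 2 sham and 2 transected, grouped by their titles. The deposited data used here were 2 peak lists, 1 per group, called by HOMER findPeaks on pooled tag directories, per the file headers. The headers give windows of 150 bp, a stitching distance of 370 bp, a false discovery rate of 0.001, a threshold of 8 tags, a filter of 4-fold over 10 kb that removed 0 peaks, and no input, although inputs were prepared per the labels' protocols. The submitters' processing notes list CASAVA 1.8.2, Bowtie and HOMER. The sources used here give no build, and coordinates were not matched to any annotation.

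Tag counts are deposited as a normalized signal, scaled to 10000000 tags per the file headers. Depth was 22595649 tags for sham and 21307148 for transected nerve. The region length in bp (other unit), the findPeaks score and the clonal fold, a ratio, were used as deposited. Multiplying by depth gave whole tags within 0.12 for 100% of peaks, used for exact intervals, which cover counting error only because reads that carry no molecular identifier may be copies of 1 molecule.

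Peaks overlapping by 1 bp were merged and tags and lengths summed per list (Python 3.11.15, pandas 2.3.3, scipy 1.17.1), and the code was tested on simulated lists. No test compares the lists: limits of 1.5-fold (tags, density), 25% (length) and 370 bp (edges) are rules of size. Named domains were the 10 longest, the 5 highest and lowest tag ratios, the 5 greatest gains and losses of length, the 5 greatest single-edge shifts each way, the 3 densest and least dense, and the 3 on each side of each limit, besides all 9 with more tags, the 4 with both edges moved and groups of 3 or more. The members and limits were chosen with earlier results of these data known. Alternatives changed the limits, the overlap, the lowest findPeaks score kept, the centring and the edges.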

Additional observations from a re-analysis of the deposited data

How the results depend on the processing

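No paired analysis was possible because each group is 1 pooled list and no column carries a replicate number. For the same reason no replicate could be left out.
Directions of tags and density rested on the centring. The share of domains with more tags in transected nerve, 64.3% as reported, was 49.8% with no centring and 47.4% centred on dense regions of 1 kb or more. The share with higher density, 47.7% as reported, was 50.9% and 41.9%. Domains with 1.5-fold more and fewer tags numbered 6 and 3 under each of these centrings, against 9 and 1 as reported.
The number of domains, 468, was 189 at a minimum of 5000 bp, 1279 at 3000 bp, 302 with the limit met in both lists, 295 with the upper 75% of peaks by score (ties kept) and 302 with exactly 1 peak in each list. With 5000 bp, sham was longer in 52.9%, density was higher in transected nerve in 41.3%, edges held in 61.1%, pieces in sham were 22.8% and a near domain 5.29%. With 3000 bp, edges held in 70.6%, pieces in transected nerve were 15.4% and a near domain 21.8%. At 200 tags per kb, 0% had 1.5-fold fewer tags and 3.52% of edges reached 370 bp further in sham, and at 100 tags per kb a near domain was seen in 11.3%. With the limit met in both lists, 0.993% were at least 25% longer in transected nerve and 0.993% in sham, edges held in 70.5%, and pieces were 10.6% in sham and 11.9% in transected nerve. With the score cut, 7.46% were at least 25% longer in transected nerve, 7.46% of edges reached 370 bp further there, pieces in transected nerve were 13.6% and a near domain 5.08%. With 1 peak in each list, 1.66% and 1.32% were at least 25% longer in transected nerve and sham, and a near domain was seen in 5.63%. By outer span, an alternative chosen after seeing the data, these were 1.92% and 1.07%. By the edges of the longest peak, 56.6% of edges held, 11.1% reached 370 bp further in transected nerve and 14.0% in sham, pieces then counting as edges. Another domain lay within 500 kb of 30.3%. The clonal fold exceeded 1.5 in 1.28% in sham and 1.07% in transected nerve. Apart from the outer span and the edges, where construction shows it, the cause of these changes was not tested. The other 89 values over these alternatives stayed inside the exact interval of the reported share, or within 1.5 times the count, and the 10 named tag ratios kept their sign in each alternative that gave one. Each domain held at least 925 sequenced tags in sham and 1196 in transected nerve, so counting error was small beside the spread over domains, and the spread between animals is unknown.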
